A study of Mus musculus with 2 samples.

Results

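The genes described here are 40 genes of crosslink repair and of the DNA damage checkpoint, taken by symbol from the 31053 genes of the count table. All 40 were found. They were chosen by function and not by their values, and fall into 11 genes of nucleotide excision repair, 9 of the Fanconi core and its partner enzymes, the Fancd2 and Fanci pair, 6 of nuclease scaffolding and recombination, 6 of translesion synthesis and 6 of the checkpoint. The cells came from tumours that MTC-Q1 cells, an oral cancer line of the mouse, had formed under the skin of C57BL/6 animals; the injected cells were miR-21 KO in one group and WT in the other. When the tumours had grown for 2 weeks, all animals were given cisplatin at 5 mg/kg, and 72 hours later CD45-positive cells were selected with beads after removal of dead cells. Each group gave 1 library of droplet-based sequencing of transcript 3′ ends. Both groups received cisplatin and no untreated group was analysed here, so no value below measures a response to the drug. The knockout lies in the injected tumour cells, and the mouse's own immune cells are not labelled as lacking miR-21. Neither the age of the animals nor any pooling of tumours is stated in the labels.

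Cisplatin joins bases of one DNA strand and, more rarely, bases of opposite strands. Excision repair cuts out a damaged stretch of one strand and works throughout the cell cycle. Lesions that tie both strands together are unhooked mainly when a replication fork meets them: the Fanconi core marks the Fancd2 and Fanci pair with ubiquitin, nucleases cut beside the lesion, translesion polymerases copy past it, and recombination led by Brca2 restores the broken strand. Checkpoint kinases hold the cycle meanwhile. Tumour lymphocytes and macrophages hold both dividing and resting cells, so both states were kept apart.

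The barcodes carry a library number that no label ties to a tumour genotype, so the libraries are numbered 1 and 2 as the barcodes are, and no direction between miR-21 KO and WT tumours can be given. After filtering, library 1 held 4977 cells and 51769078 UMIs and library 2 held 6740 cells and 134639495 UMIs; a UMI marks 1 captured transcript. The libraries stood apart in content. Naive-type T cells made up 54.6% of library 1 and 0.223% of library 2, B cells 9.18% and 0.0297%, macrophages 7.70% and 30.7%, and effector-type T cells 4.94% and 23.9%. Cycling cells made up 5.16% of library 1 and 29.1% of library 2, and 8 barcode sequences occurred in both. Cells were gated by summed markers, and each name means only that a cell lay inside that gate. The leading genes of the large gates were those of their names, such as Lef1 and Tcf7 for naive-type T cells, Prf1 and Ncr1 for NK cells, Cd79a and Ms4a1 for B cells, C1qa and Mrc1 for macrophages and Chil3 and Ly6c2 for monocytes. Non-naive T cells join the effector-type, regulatory and remaining T cells; the remaining ones were led by Il17a, and effector-type cells also by Klra1. A gate of collagen-expressing fibroblasts passed the CD45 selection although Ptprc, which encodes CD45, stood at most at 14.3 per 1000000 UMIs in it.

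The members were sparsely captured. Their summed level was 444 per 1000000 UMIs (CPM) in library 1 and 427 CPM in library 2, and single members had 50 to 2736 UMIs in library 1 and 214 to 8648 in library 2. At least 10 CPM were reached by 16 members in library 1 and 18 in library 2. Captured 3′ ends are not corrected for how well each transcript is captured, so levels are compared between cells and not between genes. With 1 library per group and cells that are not replicates, no test between samples can be made. Intervals are 95% intervals, exact Poisson for a level and exact conditional binomial for a ratio, and cover counting error only.

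Most of the genes that separated cycling from non-cycling cells belong to the Fanconi and recombination groups, and the start regions of several of them are shown here because the same letters recur in them. E2F proteins, which drive many genes of DNA replication, bind runs such as TTCCCGC or TTGGCGC, and also TTCGCGC or TTGCCGC. These 4 runs were searched on both strands in RefSeq promoter windows of 300 bases, from 250 bases before to 50 bases after the start, on GRCm38.p6. The windows are printed in the direction of transcription with the E2F letters in capitals. Brca1, Brip1 and Chek1 were at least 2-fold higher in cycling cells in each of 4 comparisons below and hold the letters once each, beginning at base 22 after the start, base 4 before it and base 44 after it. Rad18 was also at least 2-fold higher in all 4, and 1 of its 2 listed windows, neither of which holds the letters, is shown beside them. The windows are chr11:101551906-101552205 (minus strand) for Brca1, chr11:86201144-86201443 (minus strand) for Brip1, chr9:36726609-36726908 (minus strand) for Chek1 and chr6:112696599-112696898 (minus strand) for Rad18.
Brca1: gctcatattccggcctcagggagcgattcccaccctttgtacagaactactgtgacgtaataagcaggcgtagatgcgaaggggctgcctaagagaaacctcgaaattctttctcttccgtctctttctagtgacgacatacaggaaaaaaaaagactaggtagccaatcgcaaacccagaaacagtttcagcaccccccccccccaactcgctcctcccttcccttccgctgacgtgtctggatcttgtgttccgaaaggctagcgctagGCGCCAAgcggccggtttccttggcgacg
Brip1: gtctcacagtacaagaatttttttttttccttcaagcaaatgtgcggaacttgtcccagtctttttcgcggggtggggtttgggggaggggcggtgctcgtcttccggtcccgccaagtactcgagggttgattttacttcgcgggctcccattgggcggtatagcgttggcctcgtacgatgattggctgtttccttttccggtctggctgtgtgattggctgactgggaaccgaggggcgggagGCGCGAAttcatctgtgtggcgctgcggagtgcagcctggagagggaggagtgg
Chek1: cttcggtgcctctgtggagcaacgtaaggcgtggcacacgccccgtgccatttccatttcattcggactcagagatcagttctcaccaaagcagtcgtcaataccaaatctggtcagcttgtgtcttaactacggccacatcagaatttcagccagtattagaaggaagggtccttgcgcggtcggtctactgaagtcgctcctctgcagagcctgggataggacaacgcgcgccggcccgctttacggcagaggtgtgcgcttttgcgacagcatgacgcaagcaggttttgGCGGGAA
Rad18: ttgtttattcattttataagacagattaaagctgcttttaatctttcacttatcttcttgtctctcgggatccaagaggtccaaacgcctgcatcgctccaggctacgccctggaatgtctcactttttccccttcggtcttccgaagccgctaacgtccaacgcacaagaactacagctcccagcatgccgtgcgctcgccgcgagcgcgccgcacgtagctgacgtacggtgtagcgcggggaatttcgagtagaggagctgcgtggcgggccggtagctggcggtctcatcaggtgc

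RefSeq listed a window for 34 of the 40 members. Of these, 16 (47.1%) held at least 1 of the E2F runs, against 2936 of 27025 genes with a listed window (10.9%). Those genes include ones not measured in these cells and were not matched to the members by level or base composition. Among members at least 2-fold higher in cycling cells in 3 or 4 of the comparisons below, 7 of 10 held them: Brca1, Brca2, Brip1, Chek1, Fanci, Fancm and Ube2t, with Fanca, Palb2 and Rad18 without. Among members higher in none of the comparisons, 5 of 18 held them: Atm, Ercc1, Ercc2, Ercc5 and Mad2l2. Other letter runs of cell cycle promoters were searched in the same way. TTTGAA, the cell cycle homology region, was in a window of 1 of 34 members and of 20.2% of all genes with a listed window. CCAAT was in a window of 19 of 34 members and of 41.1% of these genes. CCAAT read on the opposite strand can share letters with TTGGCGC. The letters are a description of these windows and say nothing of which protein binds there.

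**Figure D1:**
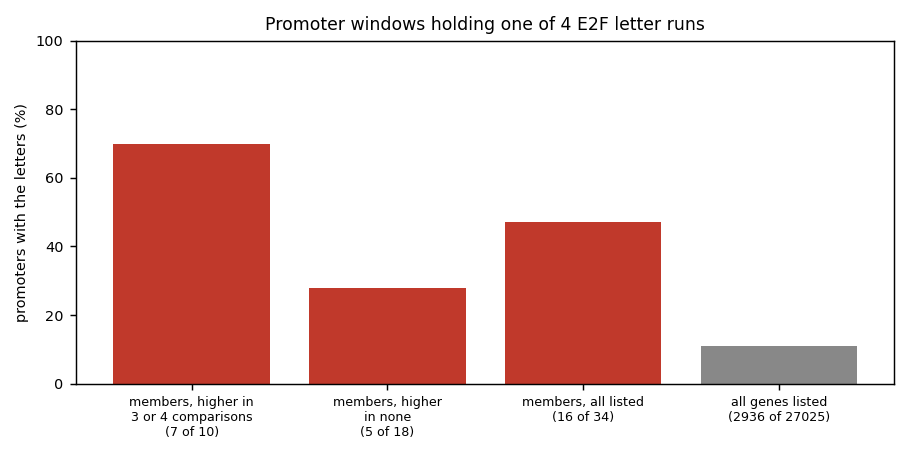
Share of genes (vertical axis, %) with at least 1 of the 4 E2F runs in any listed 300-base promoter window, for members at least 2-fold higher in cycling cells in 3 or 4 comparisons, members higher in none, all members with a listed window, and all genes with one. The bars stand at 7 of 10, 5 of 18, 16 of 34 and 2936 of 27025 genes.

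The first comparison set cycling against non-cycling cells of the same gate and library. Cycling cells were those with at least 15 UMIs of 26 replication and mitosis genes per 10000 UMIs; none of the 40 members is among these. Gates with at least 100 cells of each state gave 4 comparisons: non-naive T cells of library 1 (116 cycling and 562 non-cycling cells), non-naive T cells of library 2 (895 and 993), NK cells of library 2 (356 and 446) and macrophages of library 2 (326 and 1741). A member was counted as measured where its UMIs over both sides, times the smaller side's share of all UMIs, came to at least 10. Cycling cells were deeper, with a median of 17549.5 UMIs per cell against 7835.5 in non-naive T cells of library 1. Effector-type markers summed to 2492 CPM in cycling and 2987 CPM in non-cycling T cells of library 1 and to 5165 and 7041 CPM in those of library 2, and naive-type markers to 681 and 1629 CPM and to 336 and 405 CPM. Macrophage markers summed to 32123 CPM in cycling and 43842 CPM in non-cycling macrophages of library 2. The part of these markers in the ratios was not tested.

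Fanconi and recombination genes made up most of the members higher in cycling cells. None of the 11 excision genes was among them, a count near the shares of all genes given next. In non-naive T cells of library 1, 10 of 32 measured members were at least 2-fold higher in cycling cells, where 9.06% of all measured genes were, and 2 were at least 2-fold lower (4.53% of all genes). In library 2 it was 15 of 40 in non-naive T cells (6.06% of all genes), 15 of 40 in NK cells (6.52%) and 12 of 37 in macrophages (9%), with no member lower (1.75%, 2.31% and 1.82% of all genes were). Restricting library 2 to effector-type T cells gave 14 of 40 higher (5.86%) and 0 lower (1.22%). Of the members counted as higher, 3, 5, 10 and 0 had under 10 UMIs in the non-cycling cells of the 4 comparisons in that order and so passed the UMI minimum through the cycling cells. With mitochondrial, ribosomal protein and Gm42418 UMIs left out of the total, the median of all genes in T cells of library 1 moved by -0.12 on the log2 scale and 54.6% of the calls in either direction were higher, against 66.7%, while the members' counts stayed at 10 higher and 2 lower. The members' median log2 ratio was 0.30, 0.49, 0.60 and 0.63, and that of all genes was 0.06, -0.01, 0.01 and 0.03. Fancm, Ube2t, Fancd2, Brip1, Brca1, Brca2, Rad18 and Chek1 were at least 2-fold higher in all 4 comparisons, and 23 members were in none.

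**Figure D2:**
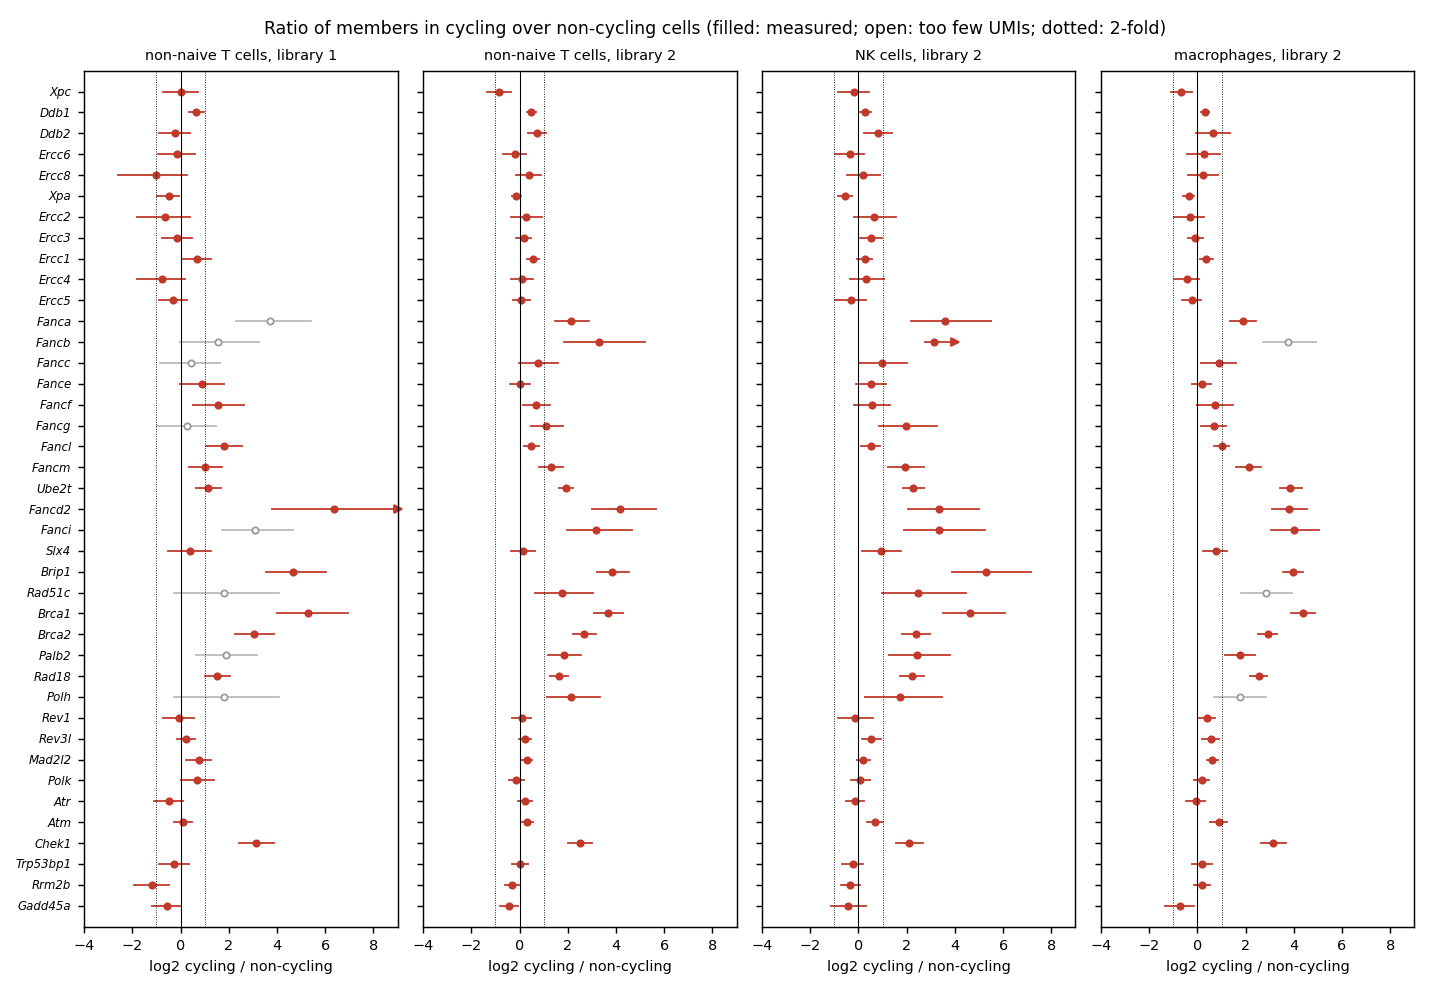
Log2 ratio of CPM in cycling over non-cycling cells (horizontal axis) for the 40 members in 4 comparisons, with 95% counting intervals. Filled points are measured members, open points had too few UMIs, dotted lines mark 2-fold, and an arrow marks an interval that runs on; the excision genes at the top lie between -1.01 and 0.81.

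Of the 6 recombination members, 5 were at least 2-fold higher in cycling cells in every comparison in which they were measured, and Slx4 in none. A member scarce in non-cycling cells, such as Rad51c, could pass the UMI minimum only through cycling cells. Brca1, which directs broken ends to recombination and spans chr11:101488764-101551955 on the minus strand of mm10, stood at 37.5 CPM in cycling and 0.955 CPM in non-cycling T cells of library 1. In T cells of library 2 it stood at 26.9 and 2.12 CPM. In NK cells of library 2 it stood at 23.6 and 0.950 CPM, and in macrophages at 27.8 and 1.35 CPM. Its level in cycling cells of these 4 comparisons lay between 23.6 and 37.5 CPM, and its Poisson intervals in the 2 states were apart in every comparison. The log2 ratios were 5.30 (4.02 to 6.96), 3.67 (3.09 to 4.31), 4.63 (3.49 to 6.10) and 4.36 (3.86 to 4.89). Counted per cell after thinning every cell to 4000 UMIs, Brca1 was seen in 13.8% of cycling and 0.534% of non-cycling T cells of library 1 (41.4% and 0.712% unthinned), and in 10.6% and 0.604% of those of library 2 (35.8% and 2.01% unthinned). Naive-type T cells of library 1, of which 0.552% were cycling, had it in 0.333% of non-cycling cells after thinning.

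Brip1 encodes a helicase that binds Brca1. It had 77 UMIs in cycling and 7 in non-cycling T cells of library 1 (34.0 and 1.34 CPM) and 465 and 21 in those of library 2 (25.3 and 1.78 CPM). NK cells had 24.5 and 0.634 CPM, and macrophages 32.2 and 2.08 CPM. Its log2 ratios of 4.67, 3.83, 5.27 and 3.95 were near those of Brca1. Brca2, a mediator of recombination, was also present in resting cells, at 3.44, 3.48, 4.75 and 2.94 CPM, against 28.3, 22.2, 24.8 and 22.2 CPM in cycling cells of the 4 comparisons. Palb2, the bridge between Brca1 and Brca2, stood at 6.96 CPM in cycling and 1.95 CPM in non-cycling T cells of library 2, at 5.90 and 1.11 CPM in NK cells and at 5.85 and 1.70 CPM in macrophages. It had too few UMIs in T cells of library 1 (16 and 10). Rad51c, another recombination gene, was at least 2-fold higher in T and NK cells of library 2 (log2 1.75 and 2.48) on 42 and 8 and on 30 and 4 UMIs. Slx4, the scaffold that gathers crosslink nucleases, was the recombination member past 2-fold in none of the comparisons, with log2 ratios of 0.38, 0.14, 0.92 and 0.75.

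**Figure D3:**
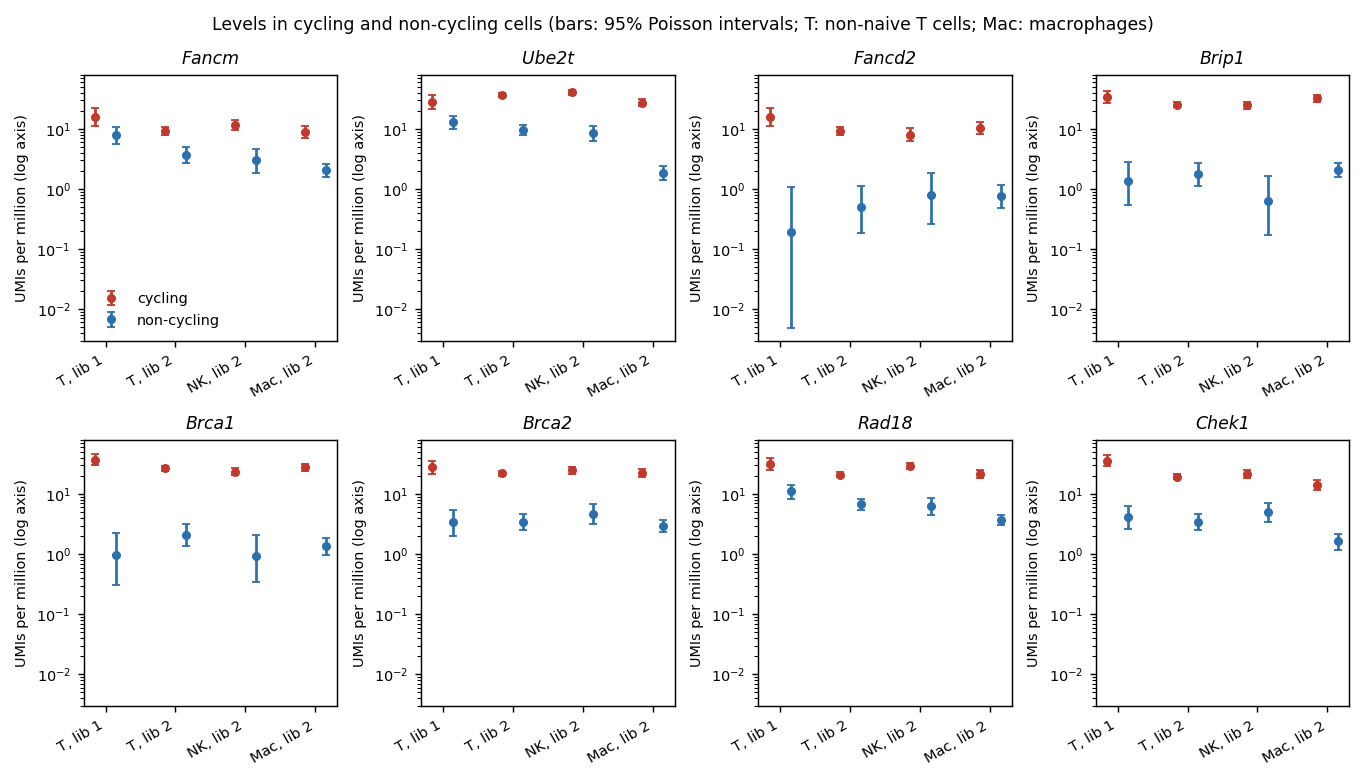
Levels in CPM (log axis) of the 8 members at least 2-fold higher in all 4 comparisons, in cycling (red) and non-cycling (blue) cells, with 95% Poisson intervals. Brca1 and Brip1 lie near or above 23 CPM in cycling cells and near 1 to 2 CPM in non-cycling ones, while Ube2t and Rad18 keep 8.39 to 12.8 CPM and 6.34 to 11.1 CPM in non-cycling lymphocytes.

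Gates with under 100 cells of a state were left out of the counts of cycling against non-cycling cells. Levels of Brca1, Brip1 and Rad18 are given here for some of these gates. Brca1 stood at 41.6 CPM (30.2 to 55.8) in 41 cycling and 4.59 CPM (1.25 to 11.8) in 76 non-cycling NK cells of library 1. In macrophages of library 1 it stood at 32.6 CPM in 46 cycling and 1.09 CPM in 337 non-cycling cells. In fibroblasts it stood at 24.7 CPM in cycling and 1.16 CPM in non-cycling cells of library 1 and at 28.6 and 1.59 CPM in those of library 2. Brca1 was thus higher in cycling cells in these gates as well, without overlap of the intervals. Brip1 in fibroblasts stood at 16.5 and 14.0 CPM in cycling cells of libraries 1 and 2, against 1.55 and 1.41 CPM in non-cycling ones. Its level in cycling macrophages of library 1 was 40.4 CPM, against 1.63 CPM in non-cycling ones. Rad18 stood at 22.8 CPM in cycling and 5.03 CPM in non-cycling fibroblasts of library 1 and at 31.3 and 3.98 CPM in those of library 2. The type 1 dendritic cells of library 2 held 28 cycling and 44 non-cycling cells. Recombination members summed to 49.8 CPM in cycling and 16.1 CPM in non-cycling ones, and core members to 108 and 57.1 CPM, with intervals apart. Intervals of the other roles overlapped. Translesion members summed to 54.9 and 54.2 CPM, and checkpoint members to 27.5 and 52.7 CPM on 16 and 36 UMIs. Excision members summed to 120 and 141 CPM, and the Fancd2 and Fanci pair to 15.5 and 1.47 CPM on 9 and 1 UMIs.

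The Fancd2 and Fanci pair, the substrate of the Fanconi core, stood far higher in cycling cells. Fancd2 had 36 UMIs in cycling and 1 in non-cycling T cells of library 1, a ratio of 83.3 whose log2 interval ran from 3.81 to 11.7. It had 169 and 6 UMIs in T cells of library 2, 68 and 5 in NK cells and 79 and 22 in macrophages, with log2 ratios of 4.17, 3.34 and 3.78. Fanci had log2 ratios of 3.17, 3.33 and 4.0 in the 3 comparisons of library 2 and too few UMIs in T cells of library 1 (22 and 6). Fanci had 6.04 CPM (5.01 to 7.22) in non-cycling naive-type T cells of library 1, where Fancd2 had 0.0998 CPM. Fanci overlaps Polg on the opposite strand and no source says whether reads were counted by strand, so this reading is uncertain.

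Within the Fanconi core the members differed. Ube2t, the enzyme that hands ubiquitin to the core, stood at 28.3 CPM in cycling and 12.8 CPM in non-cycling T cells of library 1, at 36.7 and 9.59 CPM in T cells of library 2 and at 40.4 and 8.39 CPM in NK cells. In macrophages it stood at 27.1 and 1.87 CPM. The log2 ratio was therefore 3.86 (3.42 to 4.32) in macrophages and 1.14 to 2.27 in the lymphocyte comparisons, and the difference lay in the resting cells. Fancm, which anchors the core at the lesion, had log2 ratios of 1.02, 1.29, 1.94 and 2.12. The first of these lay at the 2-fold limit and fell to 0.74 when the gate limits were doubled. Fanca, a structural core subunit, had log2 ratios of 2.14, 3.60 and 1.89 in library 2. Fancb had 35 UMIs in cycling and 0 in non-cycling NK cells, a ratio of 8.69 with the 0 set to 3 counts, which is not a lower bound. Fancl, the ubiquitin ligase of the core, was at 18.6 CPM in cycling and 5.35 CPM in non-cycling T cells of library 1 and at 16.3 and 8.14 CPM in macrophages. In T and NK cells of library 2 its log2 ratios were 0.50 and 0.50. Fancc and Fance were past 2-fold in none of the comparisons, at log2 0.77, 0.96 and 0.88 in library 2 for Fancc and 0.02 to 0.89 in all 4 for Fance.

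Of the 6 translesion members, Rad18 was at least 2-fold higher in cycling cells in all 4 comparisons, Polh in the 2 where it was measured, and the other 4 in none. In those 2, Polh had under 10 UMIs in non-cycling cells and so passed the UMI minimum through the cycling ones. Rad18, the ligase that tags the replication clamp so that a translesion polymerase can take over, stood at 31.8 CPM in cycling and 11.1 CPM in non-cycling T cells of library 1, at 21.1 and 6.79 CPM in those of library 2, at 29.5 and 6.34 CPM in NK cells and at 21.5 and 3.70 CPM in macrophages. Polh, a polymerase that copies past intrastrand crosslinks, had log2 ratios of 2.14 and 1.71 in T and NK cells of library 2, the second on 22 and 5 UMIs. Rev1, Rev3l, Mad2l2 and Polk were within 2-fold in all 4 comparisons. Rev3l, the catalytic subunit of polymerase zeta, had 39.3 CPM in cycling and 33.6 CPM in non-cycling T cells of library 1 and 12.6 and 8.55 CPM in macrophages of library 2, with log2 ratios of 0.23 and 0.56.

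Chek1, the kinase that Atr activates, was the checkpoint member that followed the cell cycle. It stood at 36.2 CPM in cycling and 4.20 CPM in non-cycling T cells of library 1, at 19.6 and 3.48 CPM in those of library 2, at 21.7 and 5.07 CPM in NK cells and at 14.4 and 1.63 CPM in macrophages. Its log2 ratios of 3.11, 2.49, 2.10 and 3.14 fell to 2.45, 1.37, 1.06 and 2.46 when cycling cells needed 30 UMIs of the cycle genes per 10000. Cells of 15 to 30 such UMIs then counted as non-cycling, so both sides of the ratio changed. The kinases upstream were within 2-fold: Atr had log2 ratios of -0.49, 0.21, -0.15 and -0.06, and Atm 0.10, 0.33, 0.67 and 0.88. Trp53bp1, which holds broken ends back from recombination, lay between -0.27 and 0.20. Gadd45a, a stress-induced partner of the replication clamp, had ratios below 0 in each comparison (-0.57, -0.43, -0.43 and -0.72), none past 2-fold. Rrm2b, the ribonucleotide reductase subunit of resting cells, was at 8.83 CPM in cycling and 19.9 CPM in non-cycling T cells of library 1 (log2 -1.17), whereas in library 2 it had log2 ratios of -0.31, -0.33 and 0.21. That ratio in library 1 was -0.80 with doubled gate limits, within 2-fold.

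None of the 11 excision genes was at least 2-fold higher in cycling cells in any of the 4 comparisons. Of all measured genes 9.06%, 6.06%, 6.52% and 9% were, so 0 of 11 is near the share of all genes. Their median log2 ratio was -0.22, 0.17, 0.26 and -0.09. Xpa, the scaffold that checks the lesion, had 23.4 CPM in cycling and 33.0 CPM in non-cycling T cells of library 1, 32.2 and 35.5 CPM in those of library 2, 23.1 and 34.2 CPM in NK cells and 25.0 and 32.1 CPM in macrophages. The TFIIH helicase Ercc3 lay between -0.14 and 0.53 and Ercc1, a subunit of the nuclease that cuts on the 5′ side, between 0.26 and 0.68. Ercc8, which acts where transcription stalls, had a log2 ratio of -1.01 in T cells of library 1 on 6 and 28 UMIs, with an interval that includes 0, and ratios of 0.19 to 0.37 in library 2.

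Genes of neighbouring pathways, taken from fixed lists of 76 symbols of which 74 were found, are described by their counts. At least 2-fold higher in cycling cells were 25 of 63 measured genes in T cells of library 1 (9.06% of all genes) and, in library 2, 24 of 73 in T cells (6.06%), 25 of 71 in NK cells (6.52%) and 25 of 70 in macrophages (9%). Homologous recombination genes made up 10 of 12, 11 of 17, 10 of 16 and 10 of 15. Bard1, the partner of Brca1, had log2 ratios of 4.13, 2.66, 3.21 and 3.61 in these comparisons, in that order. Checkpoint partners were higher in 7 of 14, 7 of 15, 8 of 15 and 8 of 15, among them Clspn, which lets Atr act on Chek1, at log2 4.33, 4.15, 4.06 and 4.58, whereas of the 6 checkpoint members 1 was in each. Fanconi partners were higher in 2 of 7, 4 of 9, 4 of 9 and 3 of 8, and mismatch repair genes in 3, 1, 2 and 2 of 4. Of the end-joining genes 1 of 5, 0 of 7, 0 of 6 and 1 of 7 were higher, and of the 10 excision partners 1 in each comparison, which was Lig1, a ligase also used in replication. Usp1, which removes ubiquitin from Fancd2, had log2 ratios of 1.19, 1.31, 1.33 and 2.08. Of the p53 targets, 1 of 11 was higher in T cells of library 1 (Phlda3) and 0 of 11 in each comparison of library 2. Over all these lists, 2 of 63 genes were at least 2-fold lower in T cells of library 1 (4.53% of all genes), 1 end-joining gene and 1 p53 target. In library 2, 0 were lower in T cells (1.75%), NK cells (2.31%) and macrophages (1.82%). Cdkn1a, the p53-induced inhibitor of the cycle, stood at 860 CPM in cycling and 1047 CPM in non-cycling macrophages of library 2 and at 176 and 231 CPM in T cells of library 2.

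Within cycling cells, those with more replication than mitosis transcripts (S-leaning) were set against those with more mitosis transcripts (mitosis-leaning), in library 2 alone, where both kinds had at least 100 cells. Few members differed by 2-fold: 1 of 40 in non-naive T cells was higher in S-leaning cells (1.56% of all genes), 2 of 39 in NK cells (2.01%) and 1 of 32 in macrophages (1.26%). Lower were 0 in T cells (3.22%), 0 in NK cells (3.97%) and 1 in macrophages (3.15%). In effector-type T cells alone 1 of 40 was higher (1.92%) and 0 lower (2.51%). Chek1 was higher in each, at 28.5 CPM in S-leaning and 11.6 CPM in mitosis-leaning T cells, 28.9 and 12.1 CPM in NK cells and 23.8 and 9.47 CPM in macrophages, with log2 ratios of 1.29 (0.97 to 1.63), 1.25 (0.76 to 1.78) and 1.33 (0.76 to 1.91). In macrophages the ratio was 0.98 with the doubled cycling limit. Rev1 in NK cells had 34 UMIs in S-leaning and 4 in mitosis-leaning cells (log2 2.67, 1.18 to 4.63), against log2 0.90 in T cells and -0.14 in macrophages. Ercc8 was lower in S-leaning macrophages on 5 and 25 UMIs, with an interval that includes 0.

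The second view was of non-cycling cells of the different gates. Rev3l, Atm, Ddb2 and Gadd45a stood higher in naive-type T cells and B cells than in macrophages, whereas the 11 excision members summed to 149 CPM in naive-type T cells and 146 CPM in B cells of library 1, against 147 and 154 CPM in macrophages of libraries 1 and 2. Rev3l stood at 51.3 CPM (48.2 to 54.5) in naive-type T cells and 34.1 CPM (27.5 to 41.7) in B cells of library 1, against 11.2 CPM in macrophages of library 1 and 8.55 CPM in those of library 2. Atm stood at 41.3 CPM in naive-type T cells and 37.0 CPM in B cells, against 9.24 and 7.34 CPM in macrophages and 1.68 and 2.93 CPM in monocytes of libraries 1 and 2. The intervals of naive-type T and B cells lay above those of macrophages for both genes. Ddb2, which finds bulky lesions and is a p53 target in human cells, stood at 18.5 CPM in naive-type T cells and 15.5 and 7.30 CPM in non-naive T cells of libraries 1 and 2 (18.9 CPM in the 90 regulatory ones of library 1), at 9.79 CPM in B cells, and at no more than 3.37 CPM in macrophages and monocytes of either library. Gadd45a was at 50.8 CPM (42.7 to 59.9) in B cells, 25.2 CPM in naive-type T cells, 17.7 and 17.6 CPM in monocytes and 7.07 and 6.13 CPM in macrophages of libraries 1 and 2.

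Other members had their highest non-cycling level outside the lymphocytes. Fanca stood at 10.9 CPM (5.83 to 18.7) in non-cycling monocytes of library 1 and 6.03 CPM (4.20 to 8.38) in those of library 2, on 13 and 35 UMIs, against 3.62 and 2.11 CPM in macrophages and 0.300 CPM in naive-type T cells. In monocytes, which held 0 cycling cells in library 1 and 7 in library 2, Fanca thus stood near its level in cycling T cells (12.4 and 7.83 CPM). Fanca overlaps Zfp276 on the opposite strand. Ddb1, which also links many substrates to a ubiquitin ligase, stood at 210 CPM (193 to 229) in fibroblasts of library 1 and 142 CPM (135 to 149) in those of library 2, against 20.2 to 55.1 CPM in T, NK and B cells, macrophages and monocytes. Fancl stood at 27.8 CPM (16.8 to 43.5) and Palb2 at 10.3 CPM (4.12 to 21.1) in 44 non-cycling type 1 dendritic cells of library 2, on 19 and 7 UMIs. Summed over the 40 members, non-cycling monocytes stood at 222 and 207 CPM, with macrophages at 281 and 297 CPM and non-naive T cells at 439 and 334 CPM in libraries 1 and 2.

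**Figure D4:**
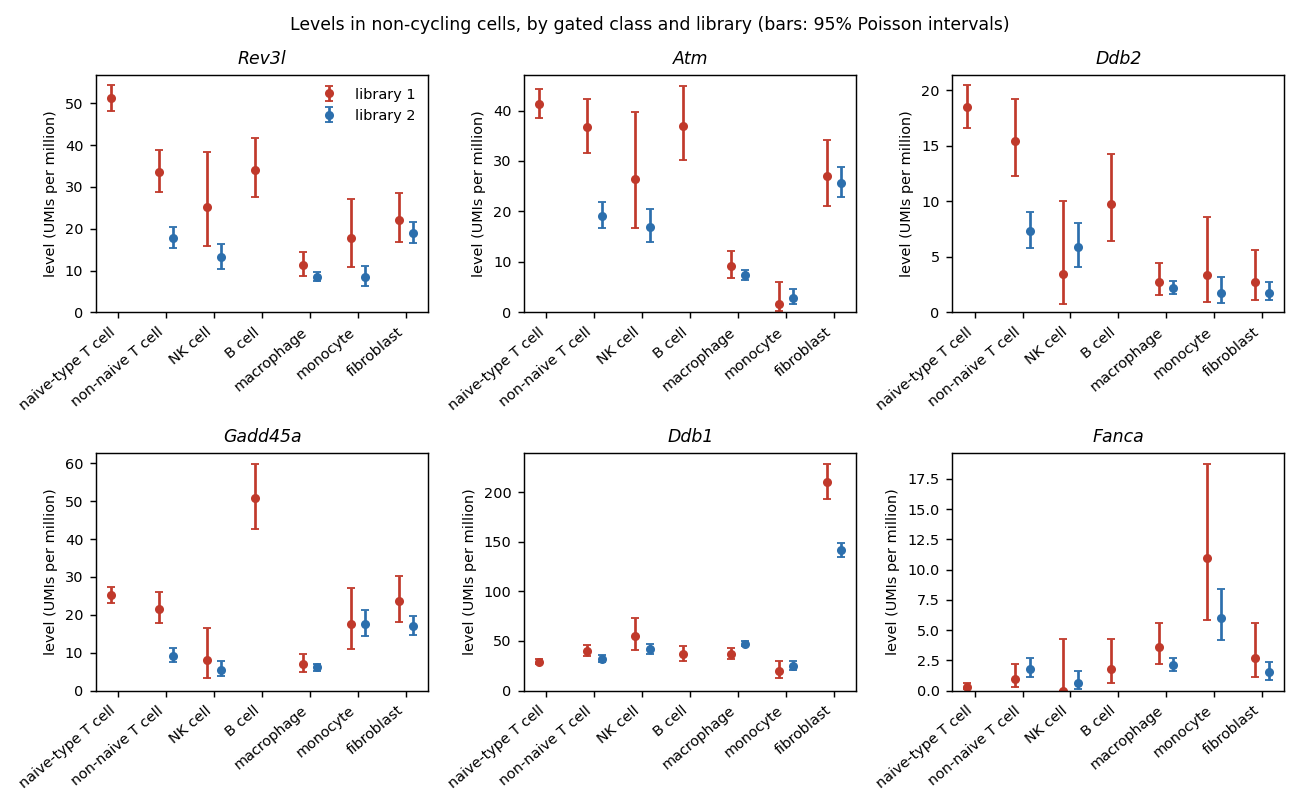
Levels in CPM (linear axis from 0) of 6 members in non-cycling cells by gate, library 1 in red and library 2 in blue, with 95% Poisson intervals; 7 gates are drawn, each where it held at least 50 cells in a library, and regulatory T cells are part of the non-naive gate. Of these 7, Rev3l, Atm and Ddb2 are highest in naive-type T cells, Gadd45a in B cells at 50.8 CPM, Ddb1 in fibroblasts and Fanca in monocytes.

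Non-cycling non-naive T cells, NK cells, macrophages and monocytes were then ranked in each library. The gate with the highest level was the same in both libraries for 14 of 26 members with at least 50 UMIs in each library (53.8%), against 65.6% of 9452 genes. The NK gate of library 1 held 76 non-cycling cells, under the 100 cells required in the other comparisons, so ranks that involve it are less certain. Ddb2, Fancm, Ube2t, Rad18, Rev3l and Atm were highest in non-naive T cells in both libraries. Ercc8, Fancl, Mad2l2, Polk and Rrm2b were highest in NK cells in both, and Xpc, Ercc3 and Fance in macrophages in both. With cells of at least 10000 UMIs alone, the number of members with a common leading gate was 8. Of the 40 members 19 overlap a counted gene on the opposite strand and Fancc overlaps Gm16907 on its own strand, which could add or remove UMIs.

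The third comparison set library 1 against library 2 in the same gate and state. In non-cycling non-naive T cells 4 of 32 measured members were at least 2-fold higher in library 1 (6.64% of all genes) and 1 was lower (7.98%). Ddb2 had 15.5 CPM in library 1 and 7.30 CPM in library 2 (log2 1.08, 0.63 to 1.54). Gadd45a had 21.6 and 9.25 CPM (log2 1.22, 0.83 to 1.62), Ercc2, a TFIIH helicase, 6.87 and 2.88 CPM (log2 1.25), and Fancm 7.83 and 3.73 CPM (log2 1.07). Fancl was lower, at 5.35 and 11 CPM (log2 -1.04, -1.69 to -0.45). Most members leaned one way: 23 of 32 ratios were above 0, and their median log2 ratio was 0.58 against 0.02 for all genes and 0.04 for the 65 measured genes of the neighbouring pathways. Naive-type T markers, all 6 of them detected in both libraries, summed to 1629 CPM in library 1 and 405 CPM in library 2 of these cells, effector-type markers to 2987 and 7041 CPM, macrophage markers to 143 and 515 CPM, mitochondrial genes to 34986 and 22186 CPM and Gm42418, which overlaps ribosomal RNA, to 24852 and 6989 CPM. Their part in the result was not tested. With mitochondrial, ribosomal protein and Gm42418 UMIs left out of the total, the median of all genes moved by 0.17 on the log2 scale to 0.19, and 9 of 31 members were at least 2-fold higher and 0 lower; of all calls in either direction 62.1% were then higher, against 45.4%. With cells of middle cycle scores left out it was also 9 higher and 0 lower. With the cycling limit doubled, or with a minimum of 30 expected UMIs, 2 were higher and 1 lower. With gate limits doubled 5 were higher and 3 lower, and with doublets kept 4 were higher and 2 lower.

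In effector-type T cells alone, 3 of 21 measured members were at least 2-fold higher in library 1 (3.61% of all genes) and 0 lower (4.68%): Xpc, a lesion sensor, at 14.3 and 6.31 CPM, Atr at 26.3 and 11.2 CPM and Gadd45a at 19.1 and 9.22 CPM. The number higher was 1 with at least 10000 UMIs per cell, 1 with middle cycle scores left out, 0 with 30 expected UMIs and 6, beside 2 lower, with no minimum. In these cells naive-type markers summed to 574 CPM in library 1 and 298 CPM in library 2, effector-type markers to 6054 and 7624 CPM, macrophage markers to 138 and 478 CPM, mitochondrial genes to 31507 and 22445 CPM and Gm42418 to 24655 and 6761 CPM, and their part in the ratios was not tested. In cycling non-naive T cells 2 of 34 were higher in library 1 (2.63%), Fanci and Gadd45a, both at log2 1.09, and 1 lower (4.57%), Ercc8, on 6 and 101 UMIs with an interval that includes 0. Gadd45a was thus at least 2-fold higher in library 1 in both states of T cells. In these cycling cells the median log2 ratio of library 1 over library 2 was 0.94 for the Fancd2 and Fanci pair. It was 0.60 for 5 measured translesion members, 0.54 for 6 checkpoint members and 0.43 for 5 recombination members. For 7 of the Fanconi core it was 0.28 and for 9 excision members 0.15, against 0.07 for all genes. Brca1 stood at 37.5 and 26.9 CPM (log2 0.48) and Brca2 at 28.3 and 22.2 CPM (log2 0.35).

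In non-cycling macrophages 0 of 31 measured members were at least 2-fold higher in library 1 (2.97% of all genes) and 1 was lower (2.41%). That was Rad18, on 8 UMIs in library 1 and 107 in library 2 (1.45 and 3.70 CPM, log2 -1.35, -2.60 to -0.32), at -0.83 with the doubled cycling limit. The doubled limit added cells of 15 to 30 cycle UMIs per 10000 to the non-cycling macrophages. The members' median log2 ratio was 0.02 and that of all genes 0.06. Xpa had 32.2 and 32.1 CPM, Rev1 9.42 and 9.45 CPM and Atr 9.42 and 9.31 CPM in libraries 1 and 2, with intervals of the log2 ratio of -0.23 to 0.24, -0.46 to 0.43 and -0.44 to 0.45. In monocytes 1 of 9 measured members was at least 2-fold higher in library 1 (3.14%), Rev3l at 17.7 and 8.44 CPM, and 0 were lower (1.85%).

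**Figure D5:**
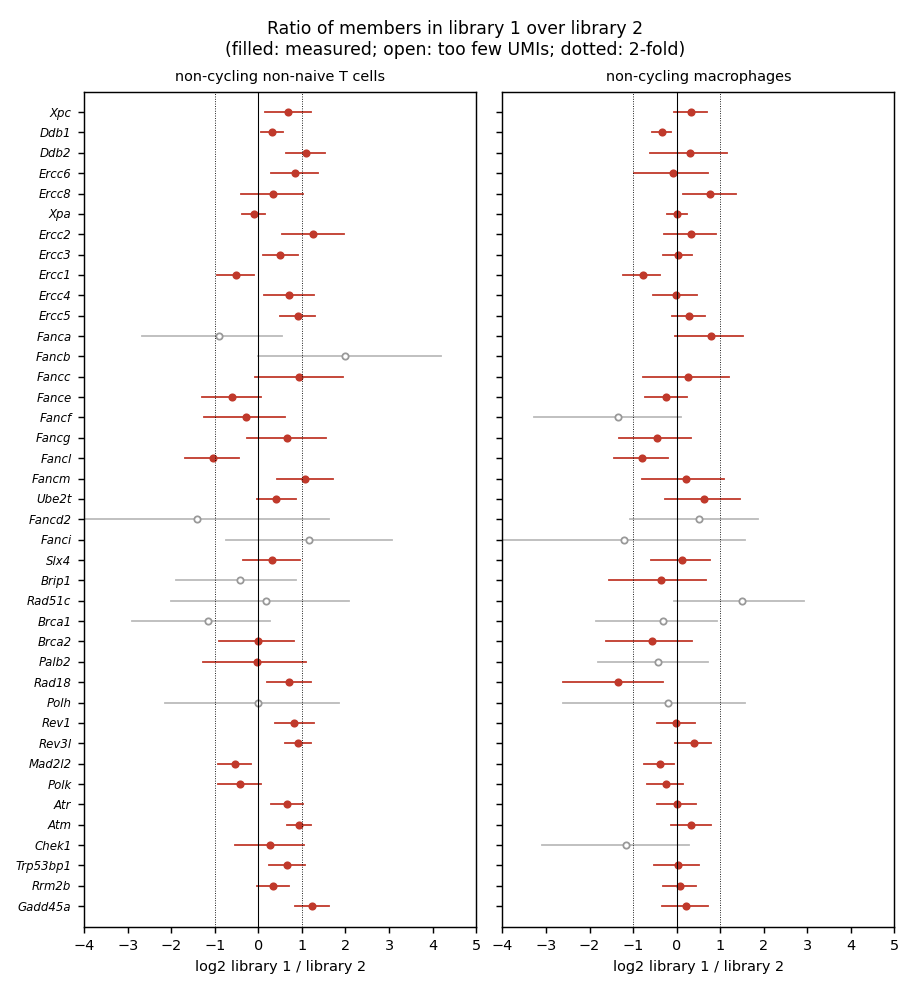
Log2 ratio of CPM in library 1 over library 2 (horizontal axis) for the 40 members in non-cycling non-naive T cells and macrophages, with 95% counting intervals. Filled points are measured members, open points had too few UMIs and dotted lines mark 2-fold; 23 of 32 measured members lie above 0 in T cells and 18 of 31 in macrophages.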

How the data were processed

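Cells of 2 droplet 3′ libraries, 1 from miR-21 KO and 1 from WT tumours, were deposited by the authors as 1 table of raw counts: whole UMI counts per gene and barcode, not normalized. Cell Ranger and mm10 are named per the submitters' processing notes, and version 3.1.0 per the file headers; no source used here says whether reads were counted by strand. The barcode suffix gives the library, and no label ties it to a group. The members and lists were chosen with earlier results of these data known, and the gate limits and the cycling limit were set after the data were seen.

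Members were matched by symbol; 71 gene IDs of the table share a symbol with another, and no member does. Barcodes needed at least 500 UMIs, 200 genes and at most 10% mitochondrial UMIs. Scrublet in scanpy 1.11.5, at its automatic threshold, called 0 doublets and so had not worked; instead the top 5% by score in each library (266 and 360 barcodes) were dropped. Cells passing limits for more than 1 lineage (349 and 200) or none (36 and 386) were left out of gates. The regulatory gate also needed at least 1 Foxp3 UMI. UMIs were summed over cells and given per 1000000 UMIs of the same cells (CPM). Ratios carry exact conditional binomial intervals (scipy 1.17.1), a side at 0 was set to 3 counts, and at least 2-fold was the call. Intervals assume independent counts and cover counting error only: with 1 library per group no p-value between samples was computed. The ratio code was tested on simulated data. All members could be named. Other repair genes were to be named where past 2-fold in both libraries or as a member's textbook partner. Some p53 targets, among them Phlda3, Ccng1 and Zmat3, were named outside this rule, after their values were seen. Positions are those of GENCODE M21 on mm10. Alternatives doubled the gate or cycling limits, kept doublets, required 10000 UMIs per cell, used a 5% mitochondrial limit, changed the CPM total, changed the UMI minimum, or left out cells between 5 and 15 cycle UMIs per 10000. Under the doubled cycling limit, cells between 15 and 30 cycle UMIs per 10000 counted as non-cycling.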

Additional observations from a re-analysis of the deposited data

Results flagged for a closer look

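For 3 members the difference ran in opposite directions in T cells and macrophages, with counting intervals on opposite sides of 0. No share of all genes that did the same is given, so the count does not show whether 3 members is unusual. The difference between the gates was not tested, and with 1 library each it has no replicate check. Fancl, the ligase of the Fanconi core, had a log2 ratio of S-leaning over mitosis-leaning cells of 0.45 in non-naive T cells of library 2 and -0.81 in macrophages of library 2. Ddb1 had a log2 ratio of library 1 over library 2 of 0.31 in non-cycling non-naive T cells and -0.34 in non-cycling macrophages. Rad18 had a log2 ratio of library 1 over library 2 of 0.71 in non-cycling non-naive T cells and -1.35 in non-cycling macrophages, the second on 8 UMIs in library 1.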

How the results depend on the processing

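Of 175 counts under the alternatives, 137 lay within 1.5 times the value given above and 38 did not. Of 3839 ratios of single members, 3774 moved by no more than their counting interval and 65 moved further. Changing the UMI minimum cannot move a ratio, so the ratios under those alternatives were the same by design. Leaving out middle cycle scores likewise cannot move ratios between libraries in cycling cells. A reversal was counted only for members at least 2-fold apart in the results above, and 0 of these reversed. Members higher in cycling cells numbered 3 to 16 in T cells of library 1, 12 to 16 in T cells of library 2, 8 to 16 in NK cells and 7 to 15 in macrophages. With a minimum of 30 expected UMIs, under which fewer genes are measured, they numbered 3 in T cells of library 1, 8 in NK cells and 7 in macrophages, and other repair genes 16 in T cells of library 1; in library 1 against library 2, 2 were higher in non-cycling T cells, 0 higher and 0 lower in cycling ones, 0 higher in effector-type T cells and 0 lower in macrophages, and 1 was higher in S-leaning NK cells. With no minimum they numbered 16 in T cells of library 1; between libraries 3 were lower in non-cycling T cells, 6 higher and 2 lower in effector-type T cells and 1 higher and 4 lower in macrophages, and 2 were higher in S-leaning macrophages.

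The remaining counts that moved concern the comparisons of libraries and of cycle stages, and the cause was not tested. With gate limits doubled, 3 members were lower in library 1 in non-cycling T cells, 0 in cycling T cells and 1 in effector-type T cells, and 2 were higher in S-leaning macrophages. With the cycling limit doubled, 2 were higher in library 1 in non-cycling T cells and 0 lower in macrophages, and 2 were higher in S-leaning T cells and 0 in S-leaning macrophages. With doublets kept, 2 were lower in library 1 in non-cycling T cells and 2 higher in S-leaning macrophages. With cells of at least 10000 UMIs, 8 members had a common leading gate, 0 were lower in library 1 in cycling T cells, 1 was higher in effector-type T cells and 1 in macrophages. With the 5% mitochondrial limit, 2 were lower in macrophages of library 1. Without mitochondrial, ribosomal protein and Gm42418 UMIs in the total, 9 were higher and 0 lower in non-cycling T cells of library 1 and 0 lower in cycling ones. With middle cycle scores left out, an alternative chosen after seeing the data, 9 were higher and 0 lower in non-cycling T cells of library 1 and 1 higher in effector-type T cells. Fancm in T cells of library 1, at the 2-fold limit, fell to 0.74 with doubled gate limits, 0.79 with at least 10000 UMIs per cell and 0.95 with doublets kept. No paired analysis was possible because each group has 1 library and no test between samples was made. Depth limits, among others, Fancb, Rad51c and Polh, with under 10 UMIs each in non-cycling T cells of both libraries.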

Other observations

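Among p53 targets of library 2, 4 of 11 were at least 2-fold lower in S-leaning macrophages (Phlda3, Ccng1, Trp53inp1 and Zmat3), where Ccng1 stood at 59.7 CPM against 152.5 CPM in mitosis-leaning ones, 1 of 11 in T cells (Phlda3) and 0 of 11 in NK cells. Of all genes 3.15% were lower in S-leaning macrophages, 3.22% in T cells and 3.97% in NK cells, and 0 of 11 p53 targets were higher in each of the 3 gates. In non-cycling non-naive T cells, 1 of 11 measured p53 targets was at least 2-fold higher in library 1 than in library 2 (6.64% of all genes). Another 2 were at least 2-fold lower (7.98% of all genes). Cdkn1a, 1 of the 2 lower targets, stood at 109 CPM in library 1 against 231 CPM in library 2. Trp53inp1, the higher target, stood at 76.4 against 32.8 CPM. These names were chosen after their values were seen.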
